A study of Mus musculus with 108 samples.

Results

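Messenger RNA of liver was set against that of white adipose tissue (WAT) in control mice, using the 18 liver and 18 WAT libraries of the control genotype, which are 36 of the 108 libraries of the series. These libraries were taken by their labels for tissue and genotype, and no measured value entered that step. Earlier results of these data were known when they were chosen. They came from male C57BL/J mice labelled Bmal1-flox and aged 8 to 12 weeks, which were kept with free food under 12 h of light and 12 h of darkness. All of these mice carry the floxed allele of Bmal1, a clock gene, and none is a mouse without it. The rest of the series holds kidney and mice labelled Bmal1-iKO, for which the labels do not name the cells that lost the gene. Each tissue had 3 libraries at each of the zeitgeber times (ZT, counted in hours from lights on) 2, 6, 10, 14, 18 and 22. The labels do not say that each library came from its own mouse, so the p-values measure the spread between these libraries, which may be technical in part. They do not name the fat depot.

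The liver makes most proteins of blood plasma, packs fat and cholesterol into lipoproteins, clears drugs and ammonia, makes bile acids, and releases glucose and ketone bodies between meals. White fat stores triglyceride in a single large droplet in each adipocyte, releases fatty acids and glycerol from it under control of insulin and adrenaline-like signals, and secretes hormones such as leptin and adiponectin. The 2 tissues handle the same fuels with different members of the same enzyme and carrier families. Adipocytes hold little cytoplasm, so capillary cells, fibroblasts and macrophages contribute much of the RNA of a fat pad. A fat pad of a male mouse can adjoin the epididymis and the accessory glands.

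Counts were divided by library size and brought to a common total (CPM), with library size corrected for composition by the trimmed mean of M values (TMM), and levels are given as the median of 18 libraries with the lowest and the highest. Total counts ran from 14427873 to 23428470 in liver libraries and from 15361696 to 24414797 in WAT libraries. Differences are liver minus WAT on the log2 scale, fitted in edgeR as the mean of the 6 times with the standard error (SE), and a gene is called at a Benjamini and Hochberg adjusted p under 0.05 over all genes tested. In bulk tissue, fewer cells of a type and less RNA per cell cannot be told apart.

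Before any comparison, the libraries were set against marker genes of tissues that a sample could hold. Mean log2 CPM of 10 hepatocyte markers was 11.5 to 13.1 in liver libraries, against -1.92 to 0.10 in WAT libraries. Mean log2 CPM of 10 adipocyte markers was -0.36 to 2.09 in liver libraries, against 5.10 to 10.68 in WAT libraries. Each label thus matched the markers of its tissue, but most WAT libraries also held RNA of other tissues. A list of 10 genes of reproductive tract epithelium, drawn up after the libraries were seen, averaged 0.51 to 1.64 in liver libraries, against -1.96 to 8.37 with a median of 7.64 in WAT libraries. Only the WAT libraries ZT2 3 and ZT18 3 were below 0 on that list, and they are called the 2 low-epithelium libraries here. Epcam, a surface protein of epithelial cells, had 0.113 and 0.178 CPM in those 2 and 50.4 to 344 CPM in the other 16. Epididymis markers had a mean log2 CPM of 7.82 or more in WAT libraries ZT2 2, ZT10 3, ZT14 3, ZT18 1, ZT22 1 and ZT22 2. Crisp1, a gene of that list, was not limited to these libraries. It had 1537 to 23476 CPM over the 16 WAT libraries other than the 2 low-epithelium ones, highest in ZT14 1. Seminal vesicle and prostate markers reached 12.1 in WAT library ZT10 1, where 6 genes held 50% of all counts. Skeletal muscle markers reached 7.76 and 8.66 in WAT libraries ZT6 1 and ZT6 3, 11.3 in ZT18 2 and 3.96 in ZT22 1, where the median WAT library had -0.67. Mitochondrially encoded genes took 44.6% of the counts of WAT library ZT22 3. Among liver libraries, ZT6 1 and ZT22 1 stood apart, with mean log2 CPM of B cell markers at 3.69 and 3.47, where the median liver library had 0.037, and likewise high cell cycle, macrophage and Kupffer cell markers. Levels below are therefore given by medians, and counts of calls over pathway lists are also given with the 2 low-epithelium libraries as the whole of WAT. In that smaller fit WAT has 1 library at each of 2 times, whose spread is taken from the liver groups. Its fitted differences are means of ZT2 and ZT18 alone.

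**Figure D1:**
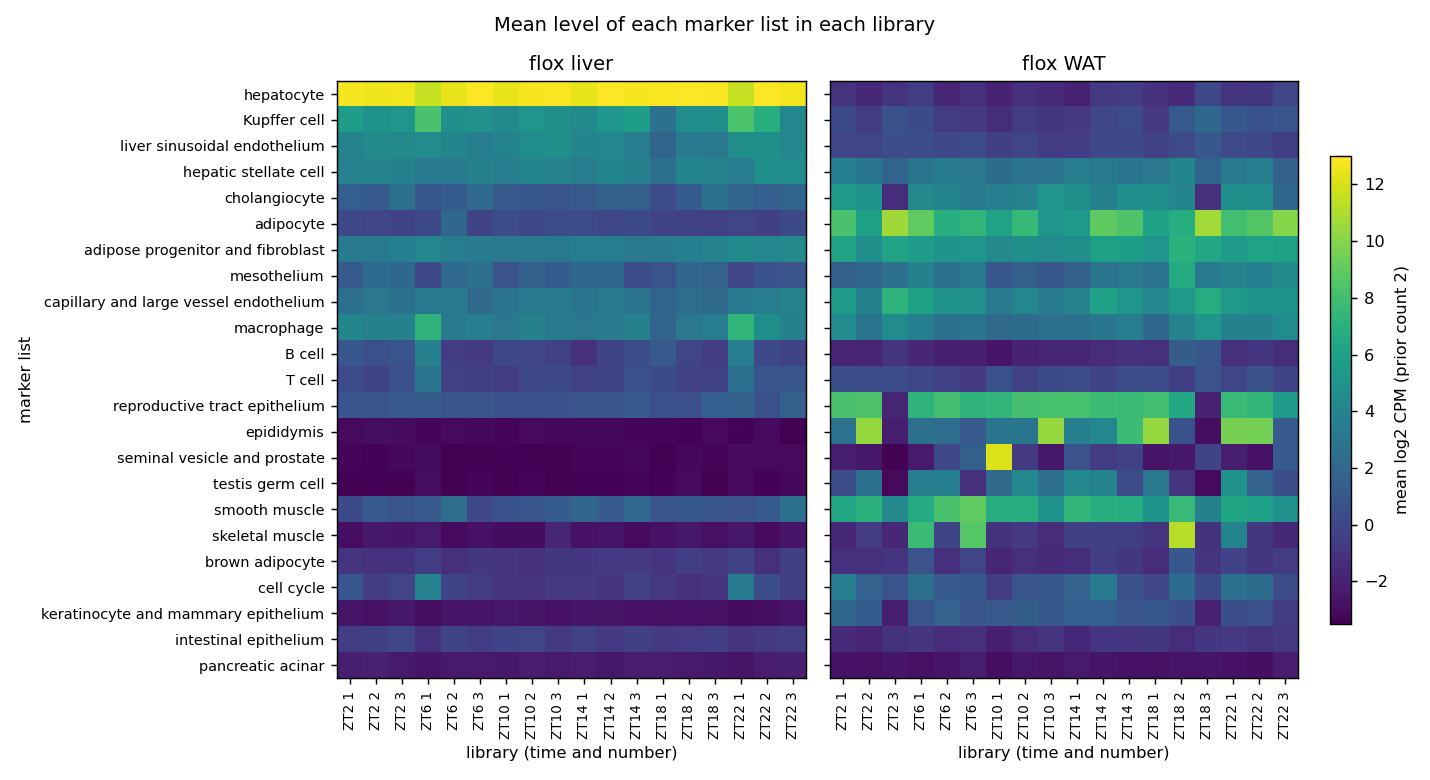
Mean log2 CPM (prior count 2) of each marker list (down) in each flox liver library (left) and flox WAT library (right), ordered by time and number. The hepatocyte row is at 11.5 to 13.1 in liver and the adipocyte row at 5.10 to 10.68 in WAT. The epithelial row is bright in most WAT columns, with a WAT median of 7.64, and ZT2 3 and ZT18 3 are dark on it. The smooth muscle row has a WAT median of 6.68. The epididymis, seminal vesicle and skeletal muscle rows are bright in some WAT columns only.

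Of 20637 genes tested, 5976 (29.0%) were higher and 9639 (46.7%) were lower in liver, and the median difference of all genes was -0.39. The common biological coefficient of variation was 0.642. A stricter rule asked for a call, at least 8-fold between the medians and no overlap of the 18 and 18 libraries. It held for 706 genes higher in liver (3.42%) and 632 lower in liver (3.06%). With the 2 low-epithelium libraries as WAT, 18723 genes were tested, 3901 (20.8%) were higher and 3832 (20.5%) were lower. There 1093 genes passed the stricter rule in each direction (5.84% each). A lack of overlap is easier to meet with 2 WAT libraries than with 18, so these counts are not comparable with 706 and 632. Of 17992 genes tested in both fits, 3255 were higher and 3468 were lower in both, 177 were lower with 18 WAT libraries but higher with 2, and 13 did the opposite. Among 2086 genes lower in liver by 8-fold between medians, both low-epithelium libraries stood above every liver library for 956 (45.8%), and neither did so for 901 (43.2%). Among 1218 genes higher in liver by 8-fold, both stood below every liver library for 898 (73.7%). Genes counted as WAT genes by the 18 libraries thus included many that the 2 low-epithelium libraries did not hold above liver. Every count over a gene list below is to be read beside the shares of all genes. These are 29.0% higher and 46.7% lower with 18 WAT libraries, and 20.8 and 20.5% with the 2.

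Liver spent its RNA on fewer genes than WAT. At the median, 85.5 genes held 50% of the counts in liver libraries (34 to 415), against 650 genes in WAT libraries (6 to 918; difference of medians -564.5, two-sided permutation p = 0.00032). The top 10 genes held a median of 25.1% of counts in liver libraries (15 to 37.6%), against 12.2% in WAT libraries (9.23 to 58.1%; permutation p = 0.00022). For the number of genes, the groups overlapped through WAT libraries ZT10 1 and ZT22 3 alone, with 6 and 9 genes, and the liver libraries ZT6 1 and ZT22 1 had the most among liver libraries, with 415 and 402. Without the 13 mitochondrially encoded genes the medians were 131 genes in liver and 828.5 in WAT (permutation p = 4e-05). With the 2 low-epithelium libraries as WAT, the medians were 85.5 genes in liver and 586.5 in WAT (exact permutation p = 0.0105).

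The 10 genes of each direction with the largest differences of medians and no overlap are named. Those higher in liver were Ttr, Alb, Apoa1, Serpina1e, Ahsg, Mup3, Ambp, Mup12, Cyp3a11 and Mup20, which encode plasma proteins, an apolipoprotein, major urinary proteins and a drug-oxidising enzyme. Alb, serum albumin, had 47414 to 132650 CPM in liver libraries (median 100180), against 0.0651 to 9.44 CPM in WAT libraries (median 0.750). Its fitted difference was 16.16 ± 0.82 (SE; adjusted p 1.8e-15), and the highest WAT value came from low-epithelium library ZT18 3. Ttr, the carrier of thyroxine and retinol-binding protein, had 9102 to 14658 CPM in liver (median 11952), against 0 to 0.189 CPM in WAT, with 0 counts in 11 of 18 libraries. Mup12 had 0.773 to 13242 CPM in liver (median 4700) and no count in any WAT library, which makes it at least 19627-fold higher at the medians over a floor of 3 counts per WAT library. Major urinary protein genes and the Serpina1 genes are near-identical copies whose reads a counter can split, so the values of single members are uncertain.

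The 10 genes lower in liver were Crisp1, Cuzd1, Spink8, Cfd, Glb1l2, Plin1, Adipoq, Retn, Rnase9 and Hoxb8. Of all genes tested, 4.65% were lower in liver with no overlap. Plin1, Adipoq, Retn and Cfd are adipocyte genes, and the 2 low-epithelium libraries held 1308 CPM or more of each. Adipoq, which encodes adiponectin, had 0 to 1.06 CPM in liver libraries, with no count in 16 of 18, against 42.1 to 1999 CPM in WAT libraries (median 236). It was called lower in liver (adjusted p 4.1e-10), with -11.28 between the medians at a prior count of 2. Where most libraries of a tissue hold no count, the fitted difference depends on the prior count and is no measured fold, so the difference of medians is given instead, which depends on it too. Crisp1, Cuzd1, Spink8 and Rnase9 were instead at 2.04 CPM or less in the 2 low-epithelium libraries. Crisp1, a sperm-coating protein of the epididymis, had no count in any liver library and 3272 CPM at the median of WAT, at least 8935.8-fold above the liver floor of 3 counts. The 2 low-epithelium libraries held 0.534 and 2.04 CPM of it. Glb1l2, a galactosidase-like gene, had 0 to 2.23 CPM in liver, against 231 to 1347 CPM in WAT, with 260 and 231 CPM in the 2 low-epithelium libraries. Hoxb8, a positional homeobox gene, had 0 to 0.0874 CPM in liver, against 5.70 to 229 CPM in WAT, and 6.41 and 5.70 CPM in those 2.

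**Figure D2:**
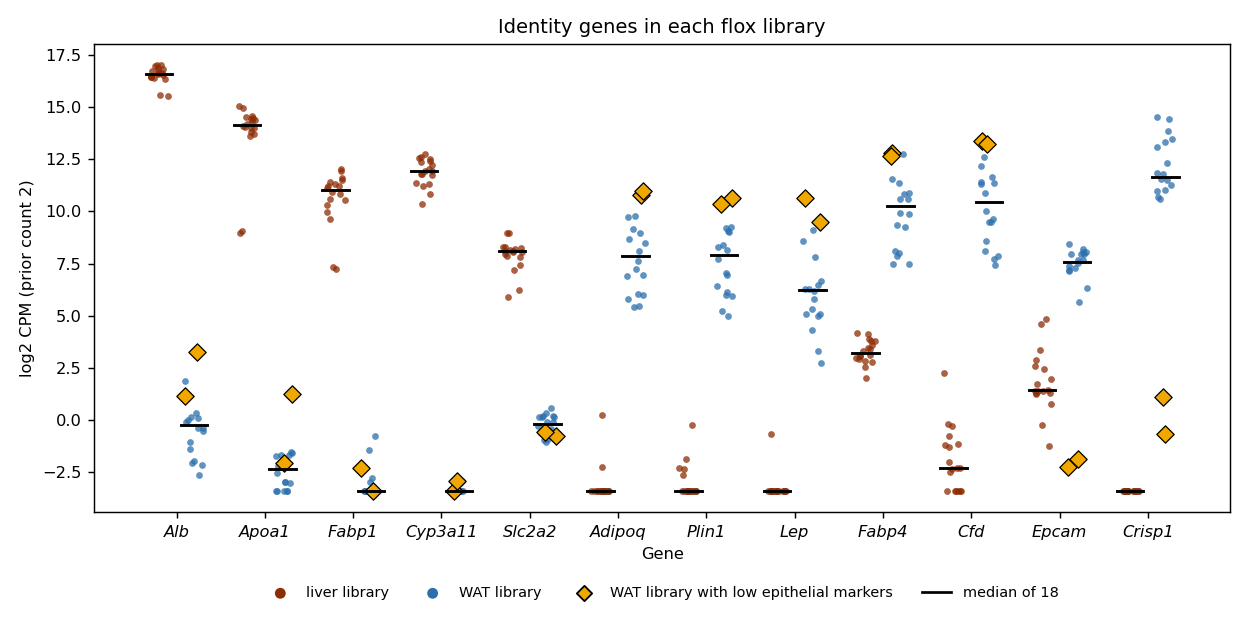
Log2 CPM (prior count 2) of 12 genes in each flox liver library (red-brown) and each flox WAT library (blue), with the 2 low-epithelium WAT libraries as yellow diamonds and the median of 18 as a bar. Alb is at 47414 CPM or more in all liver libraries and Adipoq at 42.1 CPM or more in all WAT libraries, while for Epcam and Crisp1 the 2 diamonds sit far below the other 16 WAT libraries.

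The RefSeq table of promoters (GRCm38.p6) held an entry for 121 of the 178 named genes, and 5 are printed because these genes stand in the plasma lipid, fatty acid carrier, drug, glucose and fat hormone results and their promoters hold letters known from binding motifs. Each runs from 250 bases before to 50 after the start of the gene, read along the gene: G6pc at chr11:101367466-101367765 on the + strand, Cyp3a11 at chr5:145879805-145880104 on the - strand, Apoa1 at chr9:46228380-46228679 on the + strand, Fabp1 at chr6:71199629-71199928 on the + strand, and Lep at chr6:29059971-29060270 on the + strand. Capitals mark the motif letters.
G6pc: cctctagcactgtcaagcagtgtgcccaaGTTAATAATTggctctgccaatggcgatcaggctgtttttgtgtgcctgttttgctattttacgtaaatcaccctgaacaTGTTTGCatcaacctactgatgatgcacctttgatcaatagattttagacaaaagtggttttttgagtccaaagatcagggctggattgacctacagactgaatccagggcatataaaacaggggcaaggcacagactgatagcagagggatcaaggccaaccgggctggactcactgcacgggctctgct
Cyp3a11: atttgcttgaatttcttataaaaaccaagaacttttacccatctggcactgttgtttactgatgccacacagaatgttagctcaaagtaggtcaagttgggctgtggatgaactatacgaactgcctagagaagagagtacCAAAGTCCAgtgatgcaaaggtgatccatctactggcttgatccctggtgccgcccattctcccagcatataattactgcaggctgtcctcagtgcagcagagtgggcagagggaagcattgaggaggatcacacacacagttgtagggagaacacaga
Apoa1: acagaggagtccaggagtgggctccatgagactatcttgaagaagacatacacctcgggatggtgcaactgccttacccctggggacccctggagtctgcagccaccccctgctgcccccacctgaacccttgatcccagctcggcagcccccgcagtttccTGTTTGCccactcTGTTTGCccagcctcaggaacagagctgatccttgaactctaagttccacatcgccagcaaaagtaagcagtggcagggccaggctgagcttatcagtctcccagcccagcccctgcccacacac
Fabp1: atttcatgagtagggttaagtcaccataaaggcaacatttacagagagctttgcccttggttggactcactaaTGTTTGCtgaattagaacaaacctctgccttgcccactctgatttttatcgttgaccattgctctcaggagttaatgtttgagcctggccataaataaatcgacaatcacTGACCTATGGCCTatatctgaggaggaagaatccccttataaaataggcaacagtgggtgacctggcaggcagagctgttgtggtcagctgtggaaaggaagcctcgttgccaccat
Lep: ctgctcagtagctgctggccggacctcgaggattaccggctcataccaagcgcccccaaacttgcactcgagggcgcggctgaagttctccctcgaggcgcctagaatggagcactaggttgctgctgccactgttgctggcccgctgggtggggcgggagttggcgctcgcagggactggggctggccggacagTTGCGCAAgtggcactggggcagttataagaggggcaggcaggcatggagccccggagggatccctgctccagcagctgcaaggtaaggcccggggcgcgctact
G6pc held GTTAATAATT, a match to the HNF1 motif with 1 base left free, at 221 to 212 bases before the start and the FOXA letters TGTTTGC at 141 to 135. Cyp3a11 held the HNF4 letters CAAAGTCCA at 109 to 101. Apoa1 held the FOXA letters at 88 to 82 and again at 75 to 69, and Fabp1 held them at 177 to 171. Fabp1 also held TGACCTATGGCCT, a match to the PPAR response element on the other strand with 2 bases left free, at 67 to 55. Lep held the C/EBP letters TTGCGCAA at 55 to 48, which read the same on both strands. Each motif was searched on both strands, and the letters were chosen with the values of these genes known. Promoters of 2 genes in the whole table held 2 different motifs that overlap.

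Over all 27025 genes with a promoter entry, the HNF1 letters stood in 0.437%, the HNF4 letters in 0.496%, the FOXA letters in 5.06%, the PPAR response element letters in 0.107% and the C/EBP letters in 0.189%. Among the 508 genes higher in liver by the stricter rule that had an entry, the shares were 3.74%, 3.54%, 10.2%, 0.984% and 0.394% in the same order. Among the 453 genes lower in liver by that rule, they were 0%, 0%, 2.65%, 0% and 0.221%. The PPAR response element and C/EBP shares of the 508 are 5 and 2 genes, and the C/EBP share of the 453 is 1 gene. Apoa1 and Cyp3a11, printed above, are among the 508. A match is a description of letters and not of a bound site.

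Of 30 plasma transport and protease inhibitor proteins, 29 were higher in liver, where 29.0% of all genes tested were, with a median difference between tissue medians of 11.98, against -0.33 over all genes tested. A1bg, too low for a usable estimate, had medians of 0.0385 CPM in liver and 0.0129 CPM in WAT and was not called. The same 29 were higher against the 2 low-epithelium libraries, where 20.8% of all genes were. The list held a median of 17.4% of counts in liver libraries (11.8 to 21.5%), against 0.150% in WAT libraries (0.0171 to 0.923%). The 2 low-epithelium libraries held 0.897 and 0.923%. Ahsg, the mineral-binding fetuin A, had 3342 to 16801 CPM in liver libraries, against 0 to 0.639 CPM in WAT libraries. Trf, the iron carrier transferrin, was named after its values were seen because WAT held it too. It had 6356 to 33301 CPM in liver libraries (median 18050), against 48.8 to 2335 CPM in WAT libraries (median 430), with no overlap. Apcs, serum amyloid P, had no count in any WAT library, and placing it at its bound left the list's median at 11.98.

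All 23 clotting and fibrinolysis factors were higher in liver, 22 of them also against the 2 low-epithelium libraries, with a median difference of 11.27. They held 2.27% of counts in liver and 0.00992% in WAT at the median. The largest differences were those of Kng1, the kininogen from which bradykinin is cut, of Fgb and Fgg, which encode fibrinogen chains, and of Serpinc1, antithrombin. Fgb had 2280 to 9571 CPM in liver libraries (median 4847), against 0 to 5.28 CPM in WAT libraries (median 0.0580), a difference of 15.21 ± 0.70 (SE; adjusted p 2.6e-16). Serpinc1 had 177 to 4458 CPM in liver (median 3771), against 0 to 0.160 CPM in WAT. No library of one tissue reached the other for either gene.

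Of 25 complement proteins, 24 were higher in liver, among them Hc, which encodes C5, and C8a and C9 of the membrane attack complex. Hc had 262 to 1777 CPM in liver libraries (median 1064), against 0 to 0.513 CPM in WAT libraries, a difference of 13.94 ± 0.52 (SE; adjusted p 4.9e-18). Cfd, factor D or adipsin, which starts the alternative pathway and is an adipocyte product, was the exception. It had 0 to 4.68 CPM in liver libraries (median 0.105), against 173 to 10793 CPM in WAT libraries (median 1460), a difference of -13.12 ± 0.96 (SE; adjusted p 3.1e-12). Its 2 highest values, 9574 and 10793 CPM, were those of the 2 low-epithelium libraries. Against those 2 libraries 19 of 25 were higher and Cfd alone was lower.

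All 19 tested apolipoprotein and lipoprotein assembly genes were higher in liver, and 17 were so against the 2 low-epithelium libraries. The list held 7.10% of counts in liver (1.31 to 8.78%), against 0.194% in WAT (0.0336 to 0.562%). Apoa1, the main protein of high-density lipoprotein, had 502 to 33804 CPM in liver libraries (median 18154), against 0 to 2.24 CPM in WAT libraries, a difference of 17.45 ± 0.84 (SE; adjusted p 2.8e-15). Its lowest liver values, 502 and 530 CPM, were in libraries ZT22 1 and ZT6 1, the 2 that stood apart by immune and cell cycle markers, and the other 16 held 12558 CPM or more. Apob, the backbone of very low-density lipoprotein, had 1704 to 5353 CPM in liver (median 3345), against 0 to 0.428 CPM in WAT. Apoa2 and Apof also had no overlap.

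Hormone-like products of the liver, listed as hepatokines, were higher in liver in 20 of 20 cases and in 17 of 20 against the 2 low-epithelium libraries. Hamp, hepcidin, which blocks iron export, had 198 to 5064 CPM in liver libraries (median 1627), against a count in 1 of 18 WAT libraries, at 0.0651 CPM. Lect2, a chemotactic factor, and Inhbc, an activin chain, had median levels of 178 and 97.4 CPM in liver libraries, against medians of 0 in WAT.

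Of 22 genes of P450 drug oxidation, 21 were higher in liver, and Cyp2b10, which drugs of the phenobarbital class induce, was not called, and 18 of 22 were higher against the 2 low-epithelium libraries. The list held a median of 1.82% of counts in liver libraries, against 0.156% in WAT libraries, and 0.579 and 0.555% in the 2 low-epithelium libraries. Their median difference was 12.09, or 11.93 with Cyp2c29 and Cyp2c54, which had no count in any WAT library, at their bounds. Cyp3a11, a broad drug oxidase, had 1325 to 6929 CPM in liver libraries (median 3912), against 0 to 0.0369 CPM in WAT libraries, with no count in 15 of 18. Ces3a, a carboxylesterase, had a median of 2332 CPM in liver and of 0 in WAT. Cyp2d9 and Cyp2d10 had no overlap, but Cyp2d genes are close copies and their single values are uncertain.

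All 19 tested genes of bile acid synthesis and transport were higher in liver, and 19 of 20 against the 2 low-epithelium libraries, with a median difference of 10.23, or 8.98 with Cyp7a1 and Akr1d1, at 0 in every WAT library, at their bounds. Slc10a1, which takes bile acids up from blood, had 5.20 to 894 CPM in liver libraries (median 590), against 0 to 0.218 CPM in WAT libraries. Abcb11, which pumps them into bile, had 50.6 to 938 CPM in liver (median 573), against 0 to 0.413 CPM in WAT. Slc27a5, which couples bile acids and fatty acids to coenzyme A, had 201 to 1309 CPM in liver (median 925), against 0 to 0.258 CPM in WAT. Baat, which joins bile acids to taurine, differed by 11.87 between the medians (adjusted p 3.2e-16).

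Of 36 urea cycle and amino acid catabolism genes, 35 were higher in liver, 35 also against the 2 low-epithelium libraries, and 32 had no overlap between tissues, where 5.03% of all genes tested were higher in liver with no overlap. Bhmt, which remethylates homocysteine, had 557 to 14124 CPM in liver libraries (median 6895), against 0 to 0.581 CPM in WAT libraries. Cps1, the entry enzyme of the urea cycle, had 1047 to 8190 CPM in liver (median 2086), against 0 to 0.240 CPM in WAT, a difference of 15.53 ± 0.64 (SE; adjusted p 3e-17). Tat, which starts tyrosine breakdown, differed by 14.32 ± 0.54. Gldc, of the glycine cleavage system, was not called with 18 WAT libraries, at a median of 118 CPM in liver, against 101 CPM in WAT. The 2 low-epithelium libraries held 0.107 and 0.368 CPM of Gldc, which then was called higher in liver, and the part of the epithelium in this was not tested.

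Of 15 genes of gluconeogenesis and fructose breakdown, 14 were higher in liver, 12 of 15 against the 2 low-epithelium libraries, and Pcx, pyruvate carboxylase, was not called. G6pc, which releases free glucose, had 43.2 to 429 CPM in liver libraries (median 224), against 0 to 2.44 CPM in WAT libraries (median 0.344), a difference of 8.88 ± 0.45 (SE; adjusted p 1.6e-15). Gckr, a regulatory protein of hepatic glucose use, had 2.18 to 470 CPM in liver, against 0 to 0.289 CPM in WAT.

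Of 22 liver-enriched transcription factors, 19 were higher and 2 lower in liver, and 18 were higher and 1 lower against the 2 low-epithelium libraries. Hnf4a, a nuclear receptor needed for hepatocyte identity, had 329 to 700 CPM in liver libraries (median 490), against 0 to 6.73 CPM in WAT libraries (median 0.0857). Nr1i2, the drug sensor PXR, had 18.2 to 147 CPM in liver, against 0 to 0.206 CPM in WAT. Creb3l3 differed by 10.61 ± 0.42 (SE), and Onecut2, with no count in 13 of 18 WAT libraries, was also called higher. Tbx3 and Zhx2 were lower in liver with 18 WAT libraries, by -1.45 ± 0.27 and -1.25 ± 0.16 (SE). Zhx2 stayed lower against the 2 low-epithelium libraries, at -1.81 ± 0.40, while Tbx3 stood at 0.74 ± 0.44 and was not called.

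**Figure D3:**
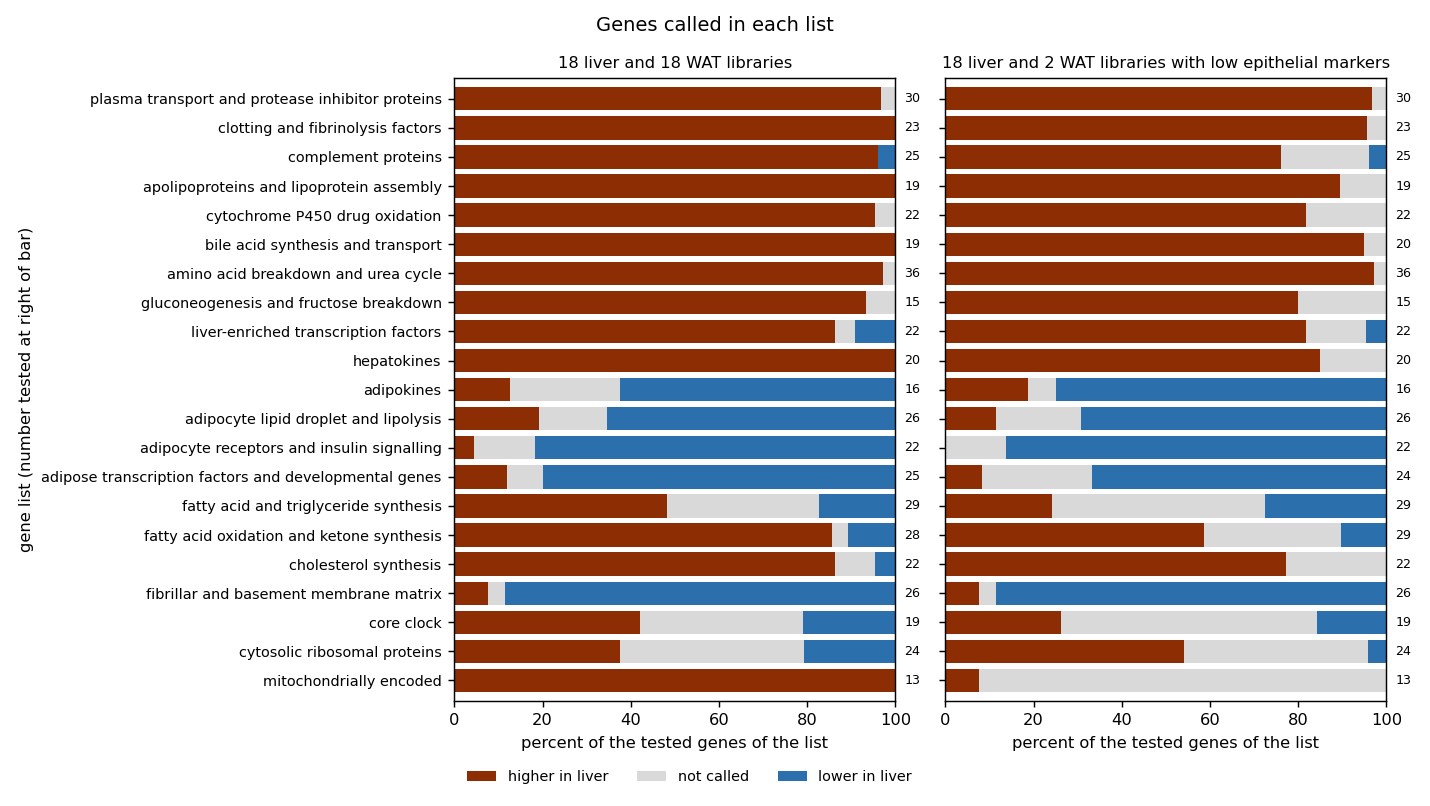
Percent of the tested genes of each pathway list that were called higher in liver (red-brown), not called (grey) or called lower in liver (blue), with 18 WAT libraries (left) and with the 2 low-epithelium WAT libraries (right), and the number tested at the right of each bar. Plasma proteins, clotting factors and bile acid genes are almost wholly higher in liver in both panels, and the matrix and adipocyte receptor lists almost wholly lower.

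Secreted products of fat, listed as adipokines, were called in both directions. Of 16 tested adipokines, 10 were lower in liver, where 46.7% of all genes tested were, 2 were higher and 4 were not called, with a median difference of -2.16. Against the 2 low-epithelium libraries 12 were lower, where 20.5% of all genes were, and 3 were higher. The list held a median of 0.165% of counts in liver libraries, against 0.644% in WAT libraries, and 2.25 and 2.28% in the 2 low-epithelium libraries. Lep, leptin, which reports fat stores to the brain, had no count in 17 of 18 liver libraries, against 6.49 to 1598 CPM in WAT libraries (median 75.6). It was called lower in liver (adjusted p 8.7e-09), with -9.66 between the medians at a prior count of 2. Retn, resistin, had 0 to 0.638 CPM in liver, against 27.5 to 1684 CPM in WAT. Rarres2, chemerin, and Agt, angiotensinogen, were the 2 members higher in liver. Agt had 352 to 2358 CPM in liver libraries (median 1569), against 20.1 to 363 CPM in WAT libraries (median 91.5), so the groups met only at their edges.

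Of 26 genes of the lipid droplet and lipolysis, 17 were lower in liver, where 46.7% of all genes tested were, 5 were higher and 4 were not called. Against the 2 low-epithelium libraries 18 were lower, where 20.5% of all genes were, and 3 were higher. They held 0.0697% of counts in liver and 0.887% in WAT at the median, and 4.39 and 4.56% in the 2 low-epithelium libraries. Plin1, which coats the adipocyte droplet and gates lipolysis, had 0 to 0.745 CPM in liver libraries, against 32.0 to 1588 CPM in WAT libraries (median 244), with -11.33 between the medians (adjusted p 1.9e-12). Aqp7, the channel by which glycerol leaves, had no count in 12 of 18 liver libraries, against 2.67 to 160 CPM in WAT. Plin2, Plin5, Cideb, Fabp5 and Fitm1 were the members higher in liver. Cideb, which loads lipid onto lipoproteins, had 12.0 to 77.3 CPM in liver, against 0 to 0.671 CPM in WAT.

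Of 22 receptors and insulin signalling genes of adipocytes, 18 were lower in liver, where 46.7% of all genes tested were. Against the 2 low-epithelium libraries 19 were lower, where 20.5% of all genes were. Tshr, the thyrotropin receptor, had no count in 17 of 18 liver libraries, against 3.07 to 181 CPM in WAT libraries (median 19.4). Hcar1, the lactate receptor that restrains lipolysis, had 0 to 0.213 CPM in liver, against 1.5 to 49.8 CPM in WAT. Acvr1c, the activin receptor ALK7, differed by -7.53 between the medians (adjusted p 1.3e-11). Ptger3, a prostaglandin E2 receptor, was also lower, with overlap. Insr, the insulin receptor, was the exception with 18 WAT libraries, at 91.0 to 191 CPM in liver (median 133), against 44.2 to 135 CPM in WAT (median 77.4), but it stood at -0.44 under scaling by total count and was not called against the 2 low-epithelium libraries.

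Of 25 tested adipose transcription factors and developmental genes, 20 were lower in liver, where 46.7% of all genes tested were. Against the 2 low-epithelium libraries 16 of 24 were lower, where 20.5% of all genes were. The median difference was -2.87, or -2.79 with 4 genes that had no count in any liver library at their bounds. Hoxc8, a homeobox gene of the posterior trunk, was one of these 4, with 3.42 to 109 CPM in WAT libraries (median 18.3), at least 49.87-fold above the liver floor of 3 counts. Hoxc6, Ebf2 and Meox2 had medians of 0 in liver libraries, against 7.39, 4.95 and 6.07 CPM in WAT libraries. Cebpa, Cebpb and Klf15 were higher in liver with 18 WAT libraries. Cebpa, which both tissues need, had 103 to 853 CPM in liver (median 530), against 45.4 to 1280 CPM in WAT (median 142), and the 2 low-epithelium libraries held 1280 and 917 CPM. Its difference of 1.07 ± 0.39 (SE; adjusted p 0.017) stood at -0.88 against those 2 libraries and at -0.041 under scaling by total count.

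Of 29 genes that build fatty acids and triglycerides, 14 were higher in liver and 5 were lower with TMM scaling, where 29.0 and 46.7% of all genes were. Scaling by total count gave 6 and 13, where 2311 and 14896 of all 20637 genes were called. Against the 2 low-epithelium libraries 7 and 8 were called, near the 20.8 and 20.5% of all genes there. Fasn, fatty acid synthase, and Srebf1, its regulator, were among the 10 not called. Acly, Acaca, Scd2, Dgat1 and Mogat1 were lower in liver. Scd2, a stearoyl-CoA desaturase, had 3.40 to 70.5 CPM in liver libraries (median 8.46), against 138 to 1202 CPM in WAT libraries (median 762), a difference of -5.85 ± 0.38 (SE; adjusted p 3.6e-13). The 2 low-epithelium libraries held 295 and 138 CPM of Scd2, still above every liver library. Elovl3 and Elovl2, which lengthen fatty acids, were higher in liver. Fads2, a desaturase, was not called with 18 WAT libraries, at medians of 290 CPM in liver and 260 CPM in WAT, while the 2 low-epithelium libraries held 11.2 and 10.2 CPM.

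Of 28 tested genes that oxidise fatty acids or make ketone bodies, 24 were higher in liver, 17 of 29 against the 2 low-epithelium libraries. Oxct1, which extrahepatic tissues need to burn ketone bodies, was lower in liver. It had 3.01 to 36 CPM in liver libraries (median 5.41), against 53.7 to 245 CPM in WAT libraries (median 97.7), a difference of -3.92 ± 0.26 (SE; adjusted p 3.2e-13). The tissues did not overlap for Oxct1. Crat and Acot2, which act on acyl-CoA in mitochondria, were the other 2 members lower in liver, with and without the epithelium-bearing libraries. Cyp4a10 and Cyp4a14, which oxidise fatty acids at the far end, had no overlap.

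Of 22 genes of cholesterol synthesis, 19 were higher in liver and 17 were so against the 2 low-epithelium libraries, though under scaling by total count 10 were higher and 3 lower. Ebp, a sterol isomerase, had 195 to 614 CPM in liver libraries (median 444), against 14.7 to 35.2 CPM in WAT libraries (median 24.2), a difference of 4.02 ± 0.16 (SE; adjusted p 1.7e-17). The tissues did not overlap for Ebp. Srebf2, the regulator of the pathway, was lower in liver with 18 WAT libraries, at -0.56 ± 0.19 (SE), and higher at 0.96 ± 0.26 against the 2 low-epithelium libraries, which held 48.7 and 46.3 CPM where the median of 18 was 122 CPM.

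Of 26 genes of fibrillar and basement membrane matrix, 23 were lower in liver in both fits, where 46.7 and 20.5% of all genes were. Lox, which crosslinks collagen, Nid1, nidogen of basement membranes, and Eln, elastin, had the largest differences of medians. Eln had 2.37 to 16.1 CPM in liver libraries (median 5.91), against 7.81 to 623 CPM in WAT libraries (median 63.3), a difference of -3.30 ± 0.41 (SE; adjusted p 7.1e-08). Fn1, fibronectin, which hepatocytes secrete into plasma, and Col14a1 were higher in liver. Fn1 had 610 to 1968 CPM in liver libraries, against 15.2 to 565 CPM in WAT libraries, with no overlap.

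The 20 pairs of related proteins set a form known from liver against one known from fat or most other tissues. Among 20 liver forms, 19 were called higher in liver, where 29.0% of all genes tested were, and Pnpla3 was lower. Among 19 fat forms tested, 17 were called lower, where 46.7% of all genes tested were. Angptl4 and Lpin1 were not called, and Cpt1b was too low to test. Fbp2, Angptl4 and Lpin1 changed sign against the 2 low-epithelium libraries. Fabp1, the fatty acid carrier of liver, had 151 to 4205 CPM in liver libraries (median 2073), against a count in 5 of 18 WAT libraries and at most 0.479 CPM. Fabp4, its adipocyte form, had 3.91 to 17.6 CPM in liver libraries (median 9.10), against 178 to 7067 CPM in WAT libraries (median 1246). Fabp1 differed by 14.43 between the medians and Fabp4 by -7.46 ± 0.54 in the fit (SE), with no overlap for either.

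For glucose entry, Slc2a2, the high-capacity transporter GLUT2, had 59.9 to 504 CPM in liver libraries (median 272), against 0.387 to 1.37 CPM in WAT libraries. Slc2a4, the insulin-responsive GLUT4, had 0.156 to 7.27 CPM in liver, against 9.63 to 251 CPM in WAT (median 54.2). Hk2, a hexokinase with a low Km, had 0.638 to 40.5 CPM in liver, against 41.0 to 199 CPM in WAT. The tissues did not overlap for Slc2a2, Slc2a4 or Hk2. Pklr and Pkm, the pyruvate kinases, differed by 6.18 ± 0.69 and -3.21 ± 0.34 (SE). Among glycogen enzymes, Gys2 and Gys1 differed by 6.18 ± 0.58 and -3.80 ± 0.27, and Pygl and Pygm by 2.02 ± 0.29 and -3.76 ± 0.49. Pygm, the muscle phosphorylase, had 2.88 to 719 CPM in WAT libraries, 4 of which stood apart by skeletal muscle markers, and their part in the difference was not tested.

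For glycerol and lipids, Aqp7 was given above, and Aqp9, through which liver takes glycerol up, had 21.5 to 688 CPM in liver libraries (median 336), against 0.312 to 208 CPM in WAT libraries (median 74.5). The 2 low-epithelium libraries held 0.855 and 0.312 CPM of Aqp9. Lipc, hepatic lipase, had 34.2 to 248 CPM in liver, against 0 to 42.2 CPM in WAT, and Lpl, lipoprotein lipase, had 6.30 to 309 CPM in liver (median 45.0), against 148 to 7861 CPM in WAT (median 885). Pnpla3, a droplet lipase whose human form is linked to fatty liver, went against its place as a liver form, with 0.0779 to 23.5 CPM in liver (median 0.688), against 2.51 to 286 CPM in WAT (median 31.7). Its difference was -5.15 ± 0.67 (SE; adjusted p 1.3e-07). Angptl4, a fasting-induced lipase inhibitor, stood at 0.67 ± 0.42 (SE; adjusted p 0.15) with 18 WAT libraries and at -1.62 ± 0.42 (adjusted p 0.0059) against the 2 low-epithelium libraries. Lpin1 stood at 0.16 ± 0.33 and -1.06 ± 0.52 and was called in neither.

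Among regulators and amino acid enzymes, Ppara, the nuclear receptor that drives fat oxidation, had 13 to 59.2 CPM in liver libraries, against 0.754 to 9.37 CPM in WAT libraries, with no overlap. Pparg, the regulator of fat cell formation, had 4.8 to 30.2 CPM in liver (median 7.41), against 4.14 to 249 CPM in WAT (median 36.3), and the 2 low-epithelium libraries held 209 and 249 CPM. Gls2, a glutaminase that liver expresses, differed by 10.87 ± 0.39 (SE). Mat1a, the methionine adenosyltransferase of liver, had 2958 to 8196 CPM in liver libraries, against 0 to 5.21 CPM in WAT libraries, while Mat2a, the general form, differed by -0.77 ± 0.13 with overlap. Fbp2, the muscle form of fructose bisphosphatase, had a median of 0 CPM in liver and 0.308 CPM in WAT and was called lower in liver (adjusted p 0.0046). Without WAT library ZT14 3 no WAT count of Fbp2 was left at ZT14, and the difference could not be estimated.

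**Figure D4:**
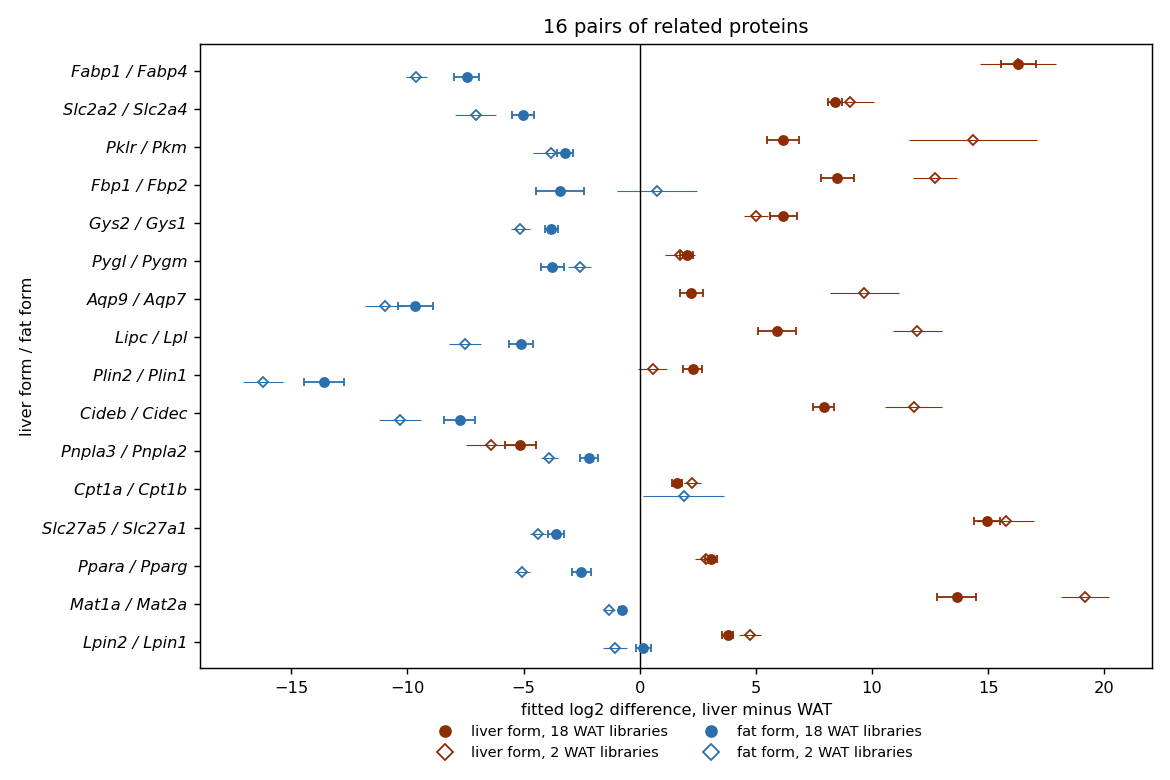
Fitted log2 difference, liver minus WAT, of the liver form (red-brown) and the fat form (blue) of 16 of the 20 pairs, with filled points for 18 WAT libraries and open diamonds for the 2 low-epithelium WAT libraries. Bars are ±1 SE, and positions of genes with most libraries of a tissue at 0, such as Fabp1 and Plin1, depend on the prior count. Liver forms lie right of 0 except Pnpla3 at -5.15, while Lpin1 and Fbp2 change side between the 2 fits.

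Cell type markers other than those of hepatocytes and adipocytes were also read. All 9 Kupffer cell markers were higher in liver, 6 of 9 against the 2 low-epithelium libraries. Clec4f, a lectin of mouse Kupffer cells, had 37.2 to 1258 CPM in liver libraries (median 173), against a count in 2 of 18 WAT libraries. All 10 markers of liver sinusoidal endothelium were higher in liver, 6 of 10 against the 2 low-epithelium libraries, among them Stab2, a scavenger receptor, at 14.6 to 90.2 CPM in liver, against 0 to 2.71 CPM in WAT. All 10 markers of capillary and large vessel endothelium were lower in liver in both fits, where 46.7 and 20.5% of all genes were. Ly6c1 had 0 to 4.0 CPM in liver, against 18.3 to 224 CPM in WAT, and both low-epithelium libraries stood above 200 CPM. Adipose progenitor and fibroblast markers were lower in liver in 10 of 12 cases in both fits, led by Gsn, gelsolin, at 22.2 to 75.5 CPM in liver, against 413 to 8561 CPM in WAT. Dpp4 and Icam1 were higher in liver with TMM scaling, though Dpp4 stood at -0.27 under scaling by total count.

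Other cell type lists turned on which WAT libraries were read. Of 10 cholangiocyte markers, 7 were lower in liver with 18 WAT libraries, while 5 of 9 were higher and none lower against the 2 low-epithelium libraries. Epcam, one of them, stood at -5.19 ± 0.66 (SE) in the first case and at 4.89 ± 1.42 in the second. The 2 libraries were chosen for an epithelial list mean below 0, where liver libraries had 0.51 to 1.64. The turn of epithelial genes such as Epcam is therefore tied to that choice and is no independent result. Of 12 macrophage markers, 7 were higher and 3 lower in liver with TMM scaling, 4 and 4 under scaling by total count, and 0 and 4 against the 2 low-epithelium libraries. Of 10 B cell markers, 9 were higher in liver with 18 WAT libraries and none was called with 2, and liver libraries ZT6 1 and ZT22 1 held the highest levels. Of 10 hepatic stellate cell markers, 5 were higher and 3 lower with TMM scaling, 4 and 4 under scaling by total count, and 7 and 2 against the 2 low-epithelium libraries. Des, desmin, had 2.63 to 13.4 CPM in liver, against 26.1 to 3096 CPM in WAT. The part that epithelium, muscle and immune cells had in these differences was not tested. Over all genes, 29.0% were called higher and 46.7% lower with TMM and 18 WAT libraries, and 20.8 and 20.5% with 2. Under scaling by total count 2311 and 14896 of 20637 genes were called higher and lower.

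**Figure D5:**
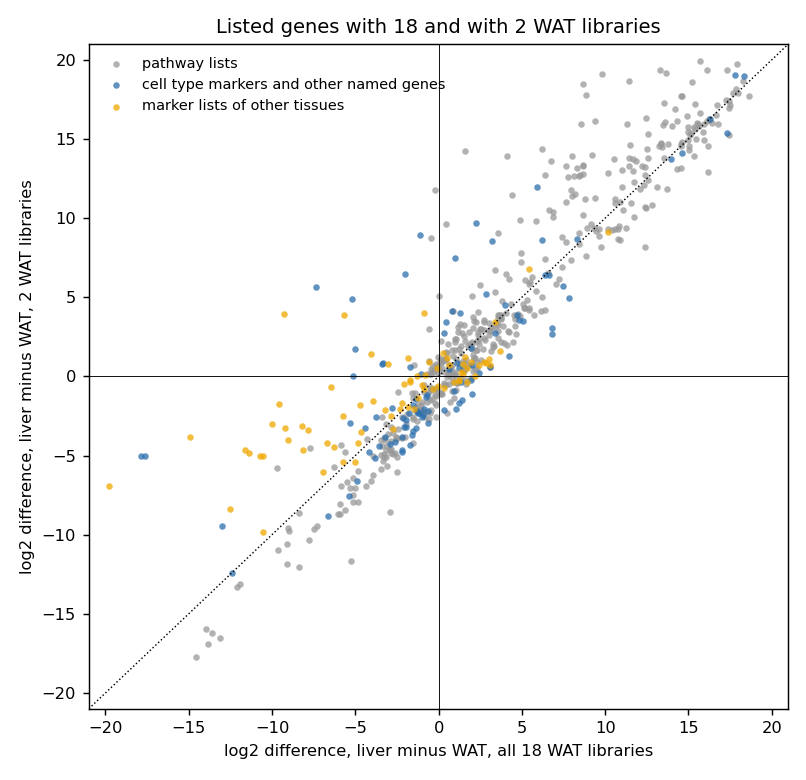
Fitted log2 difference, liver minus WAT, of 639 listed and named genes with all 18 WAT libraries (horizontal) and with the 2 low-epithelium WAT libraries (vertical), with the dotted line marking equal values. The sign was the same for 567 genes and opposite for 72, of which 39 of 469 were pathway genes and 15 of 75 were markers of other tissues.

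Of 24 cytosolic ribosomal protein genes, 9 were higher and 5 lower in liver with TMM scaling, none was higher and 21 were lower under scaling by total count, and 13 were higher and 1 lower against the 2 low-epithelium libraries, where over all genes 29.0 and 46.7% were called with TMM and 20.8 and 20.5% against the 2 libraries. All 13 mitochondrially encoded genes were higher in liver with 18 WAT libraries and 1 was so with the 2, and their share of counts was 2.69 to 30.0% in liver libraries (median 11.9%), against 1.55 to 44.6% in WAT libraries (median 5.41%). The scaling by total count moved the median difference of all genes to -1.46.

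The tissue difference was read at each time of day. Between 2971 genes at ZT22 and 3817 at ZT10 were called higher in liver at single times, and between 3354 at ZT22 and 5297 at ZT10 were called lower. At all 6 times, 1613 genes (7.82%) were higher and 1581 (7.66%) were lower. The joint test of a difference that varies over the day called 0 of 20637 genes in edgeR (lowest adjusted p 0.088), with 2305 genes at an unadjusted p under 0.05. DESeq2 called 243 and limma with voom weights called 3025, so this count depends on the tool. In simulated counts, the edgeR test found 36% of 8-fold and 89% of 64-fold changes placed in liver at ZT2. Its 0 calls therefore do not show that the difference was steady over the day. Of 19 core clock genes, 8 were higher and 4 lower in liver with TMM scaling, 4 and 13 under scaling by total count, and 5 and 3 against the 2 low-epithelium libraries. Over all genes, 29.0 and 46.7% were called with TMM and 20.8 and 20.5% against the 2 libraries, and the clock genes called against those 2 were near these shares. The fit with those 2 covers ZT2 and ZT18 only, where the others are means of 6 times. For genes that vary over the day it is thus another quantity. Bhlhe41, a repressor of the clock, had 0.0832 to 8.30 CPM in liver libraries (median 0.990), against 7.09 to 82.7 CPM in WAT libraries (median 16.5). Arntl, the floxed gene, was not called, nor were Per1, Per3, Cry2, Nr1d2, Dbp and Bhlhe40.

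Kidney libraries of the same genotype were read as levels, with no test. They were scaled by TMM over the flox liver, WAT and kidney libraries together. Kidney levels are therefore not on the same scale as the liver and WAT levels above, and small differences from them cannot be read. Fbp1, G6pc, Hnf4a and Cyp4a10 had kidney medians of 864, 339, 540 and 336 CPM. Alb, Apoa1 and Fabp1 had kidney medians of 6.64, 1.5 and 0.121 CPM. Oxct1, lower in liver than in WAT, had a kidney median of 1232 CPM.

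The same contrast was run in libraries not used above, those of Bmal1-iKO mice. There 5629 of 20958 genes (26.9%) were higher and 9130 (43.6%) lower in liver, and 3544 (18.7%) and 4491 (23.7%) with the 2 low-epithelium libraries of that genotype. Of 5891 genes higher in flox liver and tested there, 4951 (84.0%) were called the same way and 3 the opposite way, and of 9431 lower, 8121 (86.1%) and 6. Of the genes of the stricter rule, 705 of 705 tested and 632 of 632 were called the same way. The iKO WAT libraries held epithelial markers as the flox ones did, with a median of 7.76 for the same list of 10 genes, and ZT2 3 and ZT10 2 were the 2 set apart as low. Alb differed by 14.39, Fabp4 by -7.82 and Slc2a2 by 7.76 in the fit of these mice. The iKO WAT library ZT18 2 held 107 CPM of Alb, and the next highest iKO WAT library, ZT18 1, held 9.58 CPM. The part of ZT18 2 in the Alb difference was not tested.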

How the data were processed

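RNA was extracted with Trizol and sequenced, per the labels' protocols, and the submitters' processing notes name HISAT2 2.0.4, featureCounts 1.5.0-p3, DESeq2 1.16.1 and the build GRCm38 (mm10), with no strand setting given in the sources used here. The authors deposited raw read counts per gene, 55416 genes in 108 libraries, which were used as deposited. Gene positions in the deposited table do not match GRCm38: of 52046 genes matched by identifier to its annotation, 10.6% had overlapping spans, so no gene coordinates from the table are given, and promoter coordinates are those of RefSeq. Without strand, reads of overlapping and antisense genes cannot be told apart.

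The 18 flox liver and 18 flox WAT libraries were fitted with edgeR 4.0.16 (R 4.3.3) by the quasi-likelihood test with robust dispersions, TMM scaling, the filterByExpr filter and 12 tissue-by-time means. The difference was the mean over the 6 times, adjusted by Benjamini and Hochberg over 20637 genes. For 195 of these, which had no count at one of the times in either tissue, the fit gave no usable difference and no call. Log2 CPM used a prior count of 2. Genes at 0 in all libraries of one tissue were set against a floor of 3 counts per library. Permutation tests were two-sided with 100000 resamples, and exact where WAT had 2 libraries. Alternatives used DESeq2 1.42.0, limma 3.58.1 with voom, other scalings and filters, a fit with kidney, a replicate block, and left-out libraries. The code was tested on simulated data. Among flox liver and WAT libraries of the same tissue and time, no pair looked like one library deposited more than once.

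The members, the 43 gene lists (716 entries) and the tests were chosen with earlier results of these data known. Named genes were both members of each pair, the 10 largest differences of medians without overlap in each direction (protein-coding), and in each list the 4 members with the largest difference of medians plus up to 4 members called against it. Other genes named in the text, such as Trf, A1bg, Apcs, Gldc, Fads2, Pcx, Cyp7a1 and Akr1d1, were chosen after their values were seen. Some genes of these lists and pairs count in the totals but are not reported by name here.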

Additional observations from a re-analysis of the deposited data

How the results depend on the processing

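Counts of calls depended on scaling and on the WAT libraries used. With 5976 genes higher and 9639 lower in liver, scaling by total count gave 2311 and 14896, leaving out libraries with markers of another tissue gave 6368 and 6246, and the 2 low-epithelium WAT libraries gave 3901 and 3832. The share of calls that were higher in liver was 38.3%, and 13.4, 50.5 and 50.4% under these 3 settings. Libraries with markers of another tissue were those over 3 log2 units above the median of their tissue on such a list. Leaving them out kept 16 liver and 8 WAT libraries. Apart from the 2 low-epithelium ones, the WAT libraries kept still held 50.4 CPM or more of Epcam, so this setting is not WAT free of other tissue. The stricter rule gave 1073 genes higher in liver without libraries with markers of another tissue and 1093 with the 2 low-epithelium libraries. It gave 994 and 1093 genes lower in liver with total count and with the 2 low-epithelium libraries. With fewer libraries a lack of overlap is easier to meet, so counts from settings that leave libraries out are not comparable with those from all 36. Genes higher at all 6 times numbered 784 with total count, and genes lower at all 6 times numbered 2501 with voom, 3492 with total count and 728 without libraries with markers of another tissue. A difference varying over the day was called for 243 genes by DESeq2, 3025 by voom, 134 in the fit with kidney and 343 without libraries with markers of another tissue. In iKO mice the 2 low-epithelium libraries gave 3544 higher and 4491 lower. The 2 low-epithelium libraries cover 2 times, so they give no value for all 6 times or for the variation over the day.

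Leaving out 1 library at a time gave 5897 to 6129 genes higher and 9368 to 10345 lower, 702 to 734 and 627 to 710 by the stricter rule, 1365 to 1738 and 1145 to 1732 at all 6 times, and 0 to 5 varying over the day, with 5 reached without liver library ZT6 1. In iKO mice the ranges were 5530 to 5821 and 8500 to 9553. The difference in the number of genes holding 50% of the counts was -565.5 to -563.5, and in the share of the top 10 genes 12.8 to 13.1 percentage points.

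Among 169 genes named by the rule and tested, 167 of them called, 167 were also tested against the 2 low-epithelium libraries, where the sign turned for 13 and 12 kept it without the call. There the log2 differences were Fbp2 0.76, Angptl4 -1.62, Lpin1 -1.06, Tbx3 0.74, Cebpa -0.88, Srebf2 0.96, Hhip 6.49, Cldn4 5.62, Epcam 4.89, Krt19 0.036, C1qa -0.088, Cd163 -1.11 and Cx3cr1 0.18. Under scaling by total count they were Angptl4 -0.40, Lpin1 -0.93, Insr -0.44, Cebpa -0.041, Rps18 -0.090, Rps2 -0.11, Rpl27 -0.32, Dpp4 -0.27 and Krt8 -0.083. Without libraries with markers of another tissue, Srebf2 stood at 0.089 and Hhip at 0.69. Without WAT library ZT14 3, Fbp2 had no WAT count at ZT14 and no usable estimate, and Angptl4 was called without ZT2 3 (0.92) or ZT18 3 (1.15). The cause was not tested. The 2 low-epithelium libraries were chosen for low epithelial markers, so the turn of Epcam, Cldn4 and Krt19 there is no independent result.

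Replicate numbers are shared between the tissues, but the labels do not say whether same-numbered libraries share a mouse, and the numbers were not used as pairs. Deviations were correlated over 0.1 in 2 of 18 same-numbered pairs (-0.043 to 0.104). RNA of other tissues in the WAT libraries enters these deviations too, so they cannot tell whether a mouse was shared. With the replicate block 5845 genes were higher and 9345 lower, 706 and 632 by the stricter rule, 1380 and 1453 at all 6 times, and 0 varied over the day, with 5420 and 8520 in iKO mice. Depth limits genes with few counts, and a gene at 0 allows up to 3 counts per library.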
